A study of Homo sapiens with 20 samples.

Results

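The subject here is the difference between 2 responses to indirubin-3'-monoxime (I3MO): the change from DMSO to I3MO in ANBL6BR cells minus the same change in ANBL6 cells. It was measured for every gene with at least 1 FPKM (a gene's sequenced fragments scaled to its length and to the total of the library) in at least 2 of 8 libraries. This rule kept 11903 of the 60483 listed genes, and 15687 genes pass it over all 20 libraries of the series. ANBL6 is a human multiple myeloma line, a cancer of antibody-secreting plasma cells. ANBL6BR is labelled as resistant to bortezomib, an inhibitor of the proteasome. The 2 are called forms here after their names, and descent of ANBL6BR from these ANBL6 cells was not tested. RNA was sequenced from 4 groups of 2 libraries: ANBL6BR with 5 µM I3MO, ANBL6BR with DMSO (the solvent), ANBL6 with 5 µM I3MO and ANBL6 with DMSO. The series also holds ARP1, RPMI8226 and U266 cells, which enter only an alternative fit. The sources used here do not give the length of treatment, the number of clones behind each form or whether replicates were separate cultures, so p-values measure only the spread between these libraries, which may be technical.

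I3MO belongs to the indirubins, small molecules that inhibit cyclin-dependent kinases and GSK3 and bind the aryl hydrocarbon receptor. Cyclin E with CDK2 drives cells into S phase, when E2F factors turn on the genes that license replication origins, copy DNA and supply nucleotides, and when histone genes are transcribed. Plasma cells make large amounts of secreted protein, so they rely on chaperones of the endoplasmic reticulum (ER), on vesicle traffic to the Golgi and on the proteasome, the target of bortezomib.

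The total of whole fragments, worked out from the smallest steps in FPKM, was highest in ANBL6BR I3MO replicate 2 (15933154) and lowest in ANBL6 I3MO replicate 2 (12110454). The ANBL6BR DMSO pair stood apart: 505 genes differed more than 2-fold in FPKM + 1 between its replicates, against 124 in ANBL6BR I3MO, 175 in ANBL6 I3MO and 173 in ANBL6 DMSO. The ANBL6 I3MO libraries listed 32668 and 28419 genes above 0, against 20975 to 22710 in the other 6, and 6199 and 4770 pseudogenes above 0, against 2562 to 2992. Of 12 plasma cell markers, 10 reached 1 FPKM in some library, among them SDC1 (CD138) at 32.5 to 90.3 FPKM in ANBL6BR and 28.8 to 31.6 FPKM in ANBL6. XBP1, a defining plasma cell factor, was listed at 0 in all 8 libraries, and SLAMF7 stood at 0.0459 to 0.252 FPKM in ANBL6BR and 0.00280 to 0.0288 FPKM in ANBL6. The light chain constant gene IGKC was listed at 0 in ANBL6BR, and IGLC2 stood at 0.953 to 2.99 FPKM there and 2681 to 3681 FPKM in ANBL6. IGLC3, a constant gene outside the 12 markers, stood at 83.1 to 219.6 FPKM in ANBL6BR and 995 to 1383 FPKM in ANBL6. Of 10 markers of T and NK cells, 0 reached 1 FPKM in any library. Of 6 epithelial markers, 3 reached 1 FPKM in some library. In ANBL6, EPCAM stood at 8.89 to 11.05 FPKM, KRT18 at 17.7 to 20.2 FPKM and KRT5 at 1.05 to 2.32 FPKM. All were at or near 0 in ANBL6BR. KRT8, CDH1 and KRT19 stayed under 1 FPKM in all 8 libraries. Of 6 endothelial markers, 2 reached 1 FPKM. PECAM1 stood at 8.997 to 27.0 FPKM in ANBL6BR and 0.143 to 0.317 FPKM in ANBL6. ESAM stood at 1.78 to 5.67 FPKM and 0.155 to 0.227 FPKM. VWF, CDH5, KDR and EMCN were at or near 0 in all 8 libraries.

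The 2 forms expressed different immunoglobulin light chains, which in a plasma cell clone are fixed by its gene rearrangement. IGLV2-14 measured 10655 and 9361 FPKM in ANBL6BR with I3MO and 20783 and 15253 FPKM in ANBL6BR with DMSO, but 37.7 and 45.0 FPKM in ANBL6 with I3MO and 143.8 and 120.5 FPKM in ANBL6 with DMSO. IGLV2-11 ran the other way, at 2.22 to 4.54 FPKM in the ANBL6BR libraries, against 947 and 1098 FPKM in ANBL6 with I3MO and 2115 and 1645 FPKM in ANBL6 with DMSO. CCND1 (cyclin D1) was at 0.00960 to 0.0954 FPKM in ANBL6BR and 17.8 to 26.0 FPKM in ANBL6. Between the forms, 7822 genes (65.7%) were called with I3MO and 7282 (61.2%) with DMSO. Whether ANBL6BR descends from these ANBL6 cells was not tested, and bortezomib resistance cannot be told apart here from any other difference between the 2 forms.

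The responses differed at 231 of the 11903 genes (1.94%) by limma's moderated test on log2(FPKM + 1), with Benjamini-Hochberg adjusted p under 0.05. The response was higher in ANBL6BR for 92 genes (0.773%) and lower for 139 (1.17%), and 142 genes differed by at least 1 on the log2 scale. ANBL6BR itself responded at 2025 genes (17%), of which 1166 rose (9.8%) and 859 fell (7.22%). ANBL6 responded at 336 (2.82%), of which 189 rose (1.59%) and 147 fell (1.23%). Which form had more calls depended on the settings. With library weights the fit called 968 genes in ANBL6BR and 1113 in ANBL6. With no filter on low values it called 672 in ANBL6BR and 2237 in ANBL6. Among the 92 higher genes, 69 rose in ANBL6BR and 24 fell in ANBL6; among the 139 lower genes, 89 fell in ANBL6BR and 51 rose in ANBL6. These counts share libraries with the difference itself. In each of the 16 ways of taking 1 library per group the 231 kept their sign, which follows in large part from choosing them by their p in the same libraries. Of all genes tested, 2831 (23.8%) kept a positive sign and 2610 (21.9%) a negative one.

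The number of calls changed with the library left out. A group left with 1 library adds nothing to the measured spread, which then comes from the other groups alone. These counts therefore cannot show whether the calls rest on the values of a single library. Calls that remain in such a fit add no support either. Without ANBL6BR I3MO replicate 1 or 2, or without ANBL6 DMSO replicate 1 or 2, limma called 0 genes, with 2191, 2035, 2048 and 2043 genes at an unadjusted p under 0.05. Without ANBL6 I3MO replicate 2 it called 35 genes, 26 of the 231 among them, and without replicate 1 it called 244, 115 of the 231 among them. Without ANBL6BR DMSO replicate 1 or 2 it called 1877 or 1077, and the 231 were among them both times. A fit over all 20 libraries, which pools the spread of 10 groups, called 1473 genes (12.4%), 734 higher (6.17%) and 739 lower (6.21%), with 211 of the 231 among them.

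**Figure D1:**
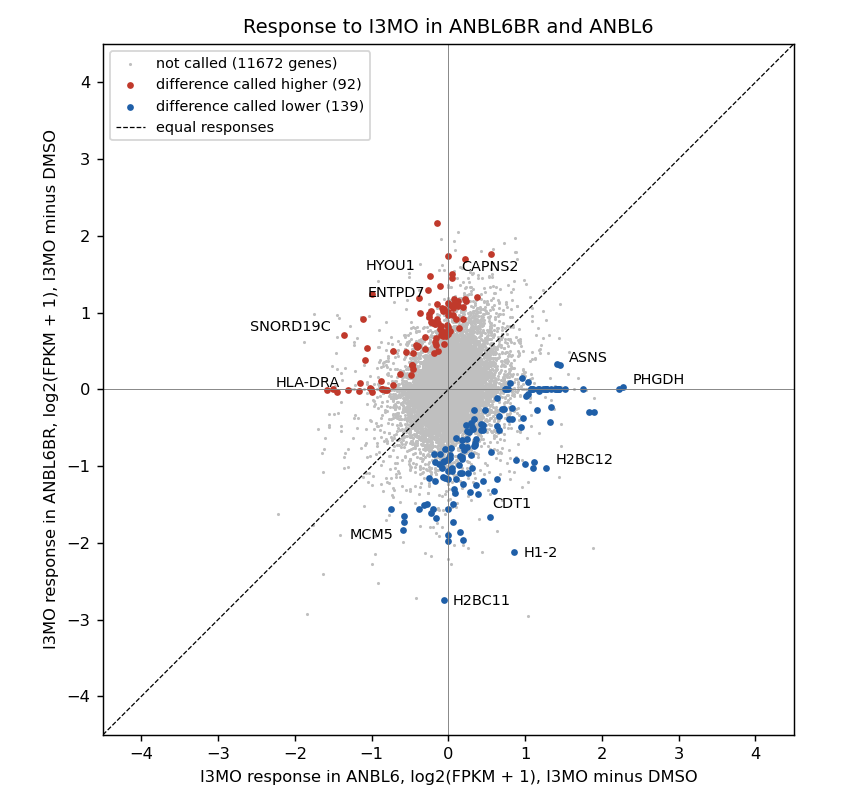
I3MO minus DMSO on the log2(FPKM + 1) scale in ANBL6BR (vertical axis) against ANBL6 (horizontal axis), each point 1 of 11903 genes and each response the difference of 2-library means. The 92 genes called higher (red) lie above the dashed line of equal responses, the 139 called lower (blue) below it, and points on the horizontal zero line are mostly genes near 0 FPKM in ANBL6BR.

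Most DNA replication genes tested fell with I3MO in ANBL6BR, and few of them passed in ANBL6. Of 50 such genes, 15 had a lower response in ANBL6BR and 0 a higher one, against 1.17% and 0.773% of all genes. The difference was negative for 49 of the 50, with a median of -0.77 (log2), where the median of all genes was 0.01. In ANBL6BR 37 of the 50 fell and 0 rose (7.22% and 9.8% of all genes), and in ANBL6 2 fell and 1 rose (1.23% and 1.59%). The median lay between -0.88 and -0.66 when any 1 library was left out, and the list did not move between the 2 ANBL6BR DMSO replicates, with 23 of 50 members higher in replicate 2.

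CDT1, which loads the replicative helicase onto origins, measured 14.2 and 15.9 FPKM in ANBL6BR with I3MO, 41.4 and 38.8 FPKM in ANBL6BR with DMSO, 27.4 and 30.2 FPKM in ANBL6 with I3MO, and 21.03 and 22.7 FPKM in ANBL6 with DMSO. Its level with I3MO was the lowest of the 4 groups in ANBL6BR and the second highest in ANBL6, with no overlap between groups. CDT1 fell by 1.36 in ANBL6BR, moved by 0.38 in ANBL6, and the responses differed by -1.74 ± 0.15 (log2, SE; adjusted p = 0.0213).

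MCM5 and MCM2, parts of the helicase that opens DNA for replication, fell in both forms and more steeply in ANBL6BR. MCM5 measured 6.47 and 7.09 FPKM in ANBL6BR with I3MO, 24.6 and 25.1 FPKM in ANBL6BR with DMSO, 21.03 and 22.0 FPKM in ANBL6 with I3MO, and 31.0 and 34.5 FPKM in ANBL6 with DMSO. The 4 groups did not overlap, with ANBL6BR I3MO far below the rest and ANBL6 with I3MO just under ANBL6BR with DMSO. The response of MCM5 was -1.73 in ANBL6BR and -0.58 in ANBL6, both called, and differed by -1.15 ± 0.13 (log2, SE; adjusted p = 0.0331). MCM2 measured 4.95 and 5.59 FPKM in ANBL6BR with I3MO, 18.6 and 18.7 FPKM in ANBL6BR with DMSO, 23.4 and 25.0 FPKM in ANBL6 with I3MO, and 34.7 and 38.8 FPKM in ANBL6 with DMSO, and its responses differed by -1.07 ± 0.14 (log2, SE; adjusted p = 0.0365). MCM4 and MCM7, also of the helicase, differed by -1.02 ± 0.13 and -1.18 ± 0.18. CDC45, GINS2 and GINS3, which activate the helicase, differed by -0.91 ± 0.14, -1.24 ± 0.18 and -0.88 ± 0.15.

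Fork and nucleotide genes were also among the called members. PCNA, the sliding clamp of DNA polymerases, measured 48.7 and 57.0 FPKM in ANBL6BR with I3MO, 136 and 132 FPKM in ANBL6BR with DMSO, 109.8 and 122 FPKM in ANBL6 with I3MO, and 92.0 and 99.2 FPKM in ANBL6 with DMSO. It was lowest in ANBL6BR with I3MO and highest in ANBL6BR with DMSO, with ANBL6 in between. PCNA differed by -1.61 ± 0.17 (log2, SE; adjusted p = 0.0322). TYMS, which makes thymidylate, differed by -1.34 ± 0.20, the polymerase epsilon subunit POLE2 by -0.87 ± 0.15, and the histone chaperones CHAF1A and CHAF1B by -0.91 ± 0.16 and -0.99 ± 0.17.

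E2F2 and CCNE1, regulators of the G1 to S step, were among the called members, and E2F1, CCNE2 and CDC25A of the same list were not. E2F2, an activating E2F factor, measured 34.3 and 37.2 FPKM in ANBL6BR with I3MO, 105 and 109 FPKM in ANBL6BR with DMSO, 24.7 and 25.4 FPKM in ANBL6 with I3MO, and 33.8 and 32.2 FPKM in ANBL6 with DMSO. ANBL6BR with DMSO stood far above the other 3 groups, which lay between 24.7 and 37.2 FPKM. E2F2 differed by -1.17 ± 0.13 (log2, SE; adjusted p = 0.0331). CCNE1 (cyclin E1) measured 1.57 and 1.91 FPKM in ANBL6BR with I3MO, 5.41 and 4.89 FPKM in ANBL6BR with DMSO, 2.49 and 3.01 FPKM in ANBL6 with I3MO, and 1.49 and 1.35 FPKM in ANBL6 with DMSO. It fell in ANBL6BR and rose in ANBL6, so the sign of the response itself was opposite. CCNE1 differed by -1.80 ± 0.16 (log2, SE; adjusted p = 0.0213). Outside the list, CDK2, the partner of cyclin E, differed by -1.09 ± 0.13 and E2F8, a repressing E2F factor, by -1.11 ± 0.19. They were the 2 called of 19 genes of cyclin-dependent kinase control, both lower, against 1.17% of all genes. Those 19 had 11 positive and 8 negative differences, with a median of 0.01. The checkpoint kinase CHEK1 differed by -0.73 ± 0.11, the 1 called of 26 repair genes. CDC6, which loads the helicase together with CDT1, did not follow: it measured 26.4 and 34.2 FPKM in ANBL6BR with I3MO, 37.0 and 24.7 FPKM in ANBL6BR with DMSO, 42.4 and 42.7 FPKM in ANBL6 with I3MO, and 37.7 and 35.1 FPKM in ANBL6 with DMSO, and its difference of -0.23 ± 0.29 did not pass (adjusted p = 0.659).

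Of 30 mitosis genes limma called 0, and 5, all lower, had an unadjusted p under 0.05, where 25.8% of all genes did. Among the 30, 3 kept a positive and 7 a negative sign in all 16 choices, and the list's median was -0.02, between -0.17 and 0.09 with any 1 library left out. The smallest p belonged to CCNA2 (cyclin A2), at -0.71 ± 0.14 with adjusted p = 0.0589. The 20-library fit called 2 of the 30 lower (6.21% of all genes), and voom on recovered fragments called 0.

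**Figure D2:**
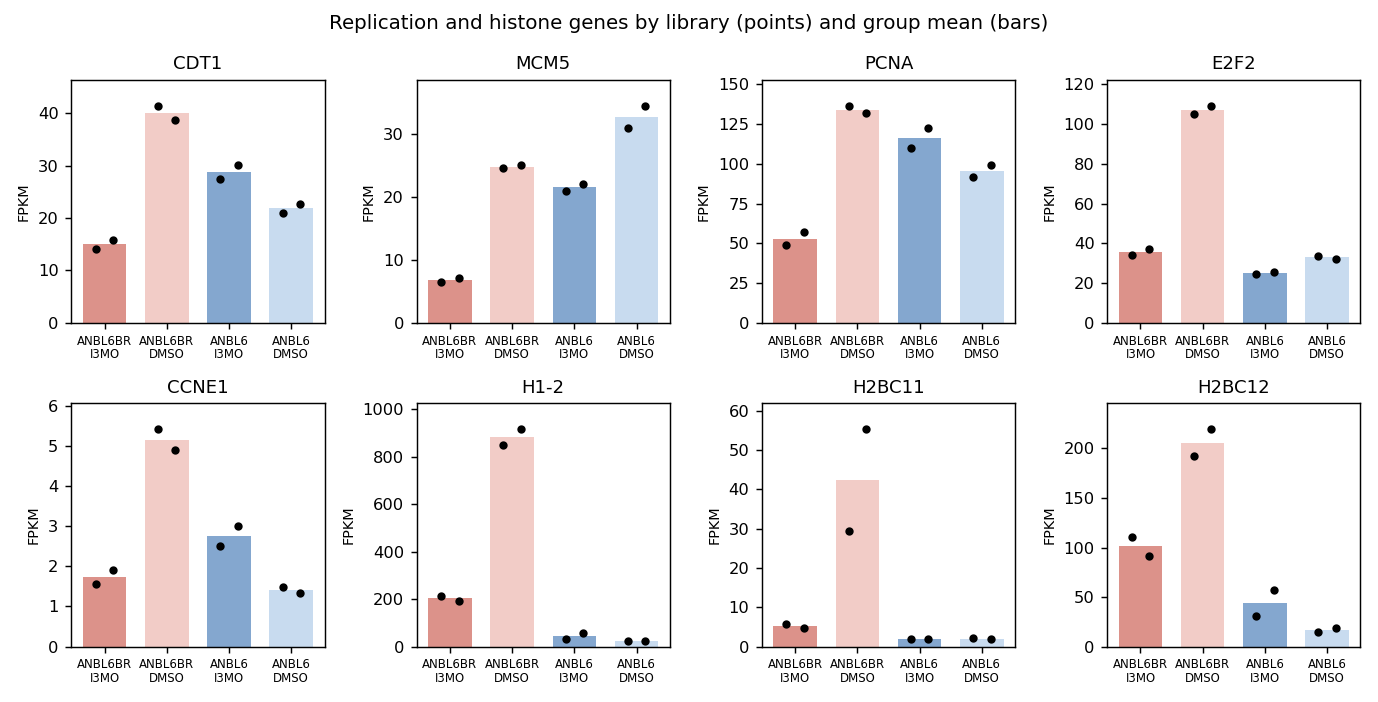
FPKM of 5 replication genes and 3 histone genes in each library (points) with the group mean (bars), 2 libraries per group, axes from 0. CDT1 shows the ANBL6BR I3MO libraries at 14.2 and 15.9, below the ANBL6BR DMSO libraries at 41.4 and 38.8, while the ANBL6 I3MO libraries at 27.4 and 30.2 lie above ANBL6 DMSO at 21.03 and 22.7.

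Promoters of the replication list were searched for the E2F site TTTNGCGC on both strands, from 250 bases before to 50 after the RefSeq start. It was present in 16 of the 43 members with an entry (37.2%), against 500 of 27305 promoters in all (1.83%) and 3.15% of those of the tested genes. Of the called members with an entry, MCM2, E2F2 and POLE2 held 2 overlapping or separate matches each, CDT1 and MCM7 held 1, and CDC45, PCNA, TYMS, CCNE1, GINS2, GINS3, CHAF1A and CHAF1B held none with these letters. Promoters are shown for 3 called members because they carry the site, which is in capitals, on GRCh38.p14: MCM2 at chr3:127598161-127598460 (plus strand), CDT1 at chr16:88803539-88803838 (plus strand) and E2F2 at chr1:23531184-23531483 (minus strand). In MCM2 and E2F2 the capitals are 2 matches, 1 per strand, that overlap.
MCM2: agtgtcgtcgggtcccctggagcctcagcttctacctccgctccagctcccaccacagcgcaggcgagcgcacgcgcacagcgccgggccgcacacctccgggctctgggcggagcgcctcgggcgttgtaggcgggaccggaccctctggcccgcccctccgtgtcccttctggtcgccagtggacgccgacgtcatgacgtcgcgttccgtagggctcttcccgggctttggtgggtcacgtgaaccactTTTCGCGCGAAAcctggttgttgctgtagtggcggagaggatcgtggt
CDT1: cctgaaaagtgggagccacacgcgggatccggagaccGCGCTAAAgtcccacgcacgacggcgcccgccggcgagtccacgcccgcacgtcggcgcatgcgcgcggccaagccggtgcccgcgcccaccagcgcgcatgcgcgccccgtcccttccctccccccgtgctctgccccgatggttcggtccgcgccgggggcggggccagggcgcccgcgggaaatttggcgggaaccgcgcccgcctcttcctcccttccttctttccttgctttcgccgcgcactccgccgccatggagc
E2F2: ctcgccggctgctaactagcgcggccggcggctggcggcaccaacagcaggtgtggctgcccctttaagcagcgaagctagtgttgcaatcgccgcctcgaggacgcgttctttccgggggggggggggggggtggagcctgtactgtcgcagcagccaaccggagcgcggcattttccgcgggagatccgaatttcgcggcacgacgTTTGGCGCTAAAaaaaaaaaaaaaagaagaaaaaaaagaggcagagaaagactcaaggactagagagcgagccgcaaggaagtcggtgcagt

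Among the named genes that passed, histone genes held the 3 largest negative differences. Replication-dependent histones package newly made DNA, and linker histone H1 binds between nucleosomes. H1-2, a linker histone on chromosome 6, measured 214 and 192 FPKM in ANBL6BR with I3MO, 849 and 914 FPKM in ANBL6BR with DMSO, 32.9 and 57.6 FPKM in ANBL6 with I3MO, and 23.4 and 23.8 FPKM in ANBL6 with DMSO. The ANBL6BR libraries with DMSO were far above all others, and both I3MO groups lay between them and ANBL6 with DMSO. H1-2 fell by 2.12 in ANBL6BR, its response in ANBL6 was 0.86 (adjusted p = 0.101), and the difference was -2.97 ± 0.34 (log2, SE; adjusted p = 0.0331).

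Of 18 tested core histone genes, 4 were called lower (H2BC11, H2BC12, H2BC21 and H3C10) and 0 higher, against 1.17% and 0.773% of all genes. Their median difference was -1.28. Of 4 linker histone genes 1 was called lower. Of the 18, the 20-library fit called 11 lower (6.21% of all genes) and voom on recovered fragments 1. H2BC11 measured 5.79 and 4.67 FPKM in ANBL6BR with I3MO, 29.5 and 55.2 FPKM in ANBL6BR with DMSO, 1.92 and 1.86 FPKM in ANBL6 with I3MO, and 2.19 and 1.83 FPKM in ANBL6 with DMSO. Its 2 ANBL6BR DMSO libraries differed widely but both lay above every other library. H2BC11 differed by -2.68 ± 0.38 (log2, SE; adjusted p = 0.0404). H2BC12 measured 111 and 91.2 FPKM in ANBL6BR with I3MO, 193 and 219 FPKM in ANBL6BR with DMSO, 31.0 and 57.1 FPKM in ANBL6 with I3MO, and 15.1 and 18.7 FPKM in ANBL6 with DMSO. The ANBL6 libraries were higher with I3MO and the ANBL6BR libraries lower, though neither response passed on its own (adjusted p = 0.0545 in ANBL6BR and 0.0669 in ANBL6). H2BC12 differed by -2.30 ± 0.40 (log2, SE; adjusted p = 0.0491), H2BC21 by -2.005 ± 0.33 and H4C9, a core histone gene outside the list of 18, by -2.07 ± 0.29. H3C10 was listed at 0 in all ANBL6BR libraries, so its difference of -0.78 ± 0.13 is the ANBL6 response with its sign turned. H1-10, a linker histone expressed outside S phase too, measured 27.2 and 24.1 FPKM in ANBL6BR with I3MO, 193 and 119.6 FPKM in ANBL6BR with DMSO, 19.4 and 22.0 FPKM in ANBL6 with I3MO, and 39.2 and 40.6 FPKM in ANBL6 with DMSO, and its difference of -1.61 ± 0.31 did not pass (adjusted p = 0.0575). Core histone genes are near-identical copies, and how reads that match several of them were counted is not given in the sources used here.

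A few genes of the secretory pathway had a higher response in ANBL6BR, 3 of ER to Golgi traffic and 1 of ER folding. All 40 tested genes of ER to Golgi traffic had a positive difference, 30 of them in all 16 choices of libraries (23.8% of all genes), with a median of 0.60. Of the 40, 3 were called higher and 0 lower, against 0.773% and 1.17% of all genes, and 28 rose in ANBL6BR (9.8% of all genes) and 1 in ANBL6 (1.59%). The 20-library fit called 14 of the 40 higher (6.17% of all genes) and voom 4. COPA, a coat protein of vesicles that return to the ER, measured 71.4 and 71.4 FPKM in ANBL6BR with I3MO, 39.8 and 35.1 FPKM in ANBL6BR with DMSO, 50.7 and 44.8 FPKM in ANBL6 with I3MO, and 53.1 and 52.9 FPKM in ANBL6 with DMSO. The ANBL6BR I3MO libraries were the highest, ANBL6BR DMSO the lowest, and the 2 ANBL6 groups did not overlap but lay close together. COPA differed by 1.06 ± 0.15 (log2, SE; adjusted p = 0.0411). SEC31A, of the outer COPII coat, differed by 0.81 ± 0.14, and MIA3 (TANGO1), which loads bulky cargo, by 0.79 ± 0.13. The list's median was 0.46 without ANBL6BR DMSO replicate 2 and 0.74 without replicate 1, and 5 of 40 members were higher in replicate 2 than in replicate 1.

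ER folding genes had a median difference of 0.56, and 32 of 39 were positive. HYOU1, an ER chaperone of the HSP70 type, was the 1 member called, at 21.4 and 25.0 FPKM in ANBL6BR with I3MO, 8.74 and 6.66 FPKM in ANBL6BR with DMSO, 5.84 and 4.61 FPKM in ANBL6 with I3MO, and 6.69 and 5.90 FPKM in ANBL6 with DMSO. ANBL6BR with I3MO stood clear above the other 3 groups, which lay between 4.61 and 8.74 FPKM. HYOU1 differed by 1.71 ± 0.23 (log2, SE; adjusted p = 0.0365). The other main chaperones came close to the threshold without passing it: HSPA5 (BiP) measured 546 and 565 FPKM in ANBL6BR with I3MO, 278 and 279.5 FPKM in ANBL6BR with DMSO, 432 and 421 FPKM in ANBL6 with I3MO, and 404 and 345 FPKM in ANBL6 with DMSO, and differed by 0.80 ± 0.17 (adjusted p = 0.0682). CALR (calreticulin) differed by 0.91 ± 0.19 and CANX (calnexin) by 0.79 ± 0.18, with adjusted p of 0.0624 and 0.0729. In ANBL6BR 22 of the 39 rose (9.8% of all genes) and 0 fell, and in ANBL6 limma called 0, against 2.82% of all genes. The 20-library fit called 11 of the 39 higher (6.17% of all genes) and voom 2. The list moved with 1 library: its median was 0.18 without ANBL6BR DMSO replicate 2 and 0.84 without replicate 1, and 3 of 39 members were higher in replicate 2.

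UGGT1, the glucosyltransferase that checks folding of glycoproteins, differed by 1.03 ± 0.17, and RRBP1, a ribosome-binding ER protein, by 1.37 ± 0.22. OGT, which attaches N-acetylglucosamine to nuclear and cytosolic proteins, measured 44.0 and 47.0 FPKM in ANBL6BR with I3MO, 18.9 and 22.3 FPKM in ANBL6BR with DMSO, 20.3 and 15.2 FPKM in ANBL6 with I3MO, and 19.9 and 19.2 FPKM in ANBL6 with DMSO. ANBL6BR with I3MO was above the other 3 groups, which overlapped or touched one another. OGT differed by 1.26 ± 0.21 (log2, SE; adjusted p = 0.0491). GFPT1, the first enzyme of the pathway that makes its sugar donor, differed by 1.13 ± 0.19.

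Promoters of the ER folding list were searched the same way. The ER stress element (CCAAT, 9 bases of any kind, then CCACG) was present in 7 of 36 promoters (19.4%), those of HSPA5, HSP90B1, CALR, CANX, CRELD2, ERO1B and XBP1, against 22 of 27305 in all (0.0806%). The ER stress element II (ATTGG, 1 base, CCACG) was added after the sequences had been seen, and was present in 3 of 36 (8.33%), HYOU1, SDF2L1 and HERPUD1, against 15 in all (0.0549%). The promoter of HYOU1, the called member, is shown for its 2 matches, in capitals on the reverse strand of the motif, on GRCh38.p14 at chr11:119057156-119057455 (minus strand).
HYOU1: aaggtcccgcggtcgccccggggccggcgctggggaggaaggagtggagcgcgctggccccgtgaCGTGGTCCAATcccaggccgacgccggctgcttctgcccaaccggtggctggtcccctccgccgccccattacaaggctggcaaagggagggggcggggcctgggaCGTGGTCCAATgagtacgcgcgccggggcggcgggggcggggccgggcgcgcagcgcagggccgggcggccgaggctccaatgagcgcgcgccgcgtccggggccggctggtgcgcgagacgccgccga

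PHGDH and ASNS, enzymes of amino acid synthesis, rose in ANBL6, with a higher response there than in ANBL6BR. PHGDH, the first enzyme of serine synthesis and a target of the stress factor ATF4, measured 34.3 and 40.2 FPKM in ANBL6BR with I3MO, 40.1 and 33.1 FPKM in ANBL6BR with DMSO, 11.7 and 16.5 FPKM in ANBL6 with I3MO, and 2.35 and 1.81 FPKM in ANBL6 with DMSO. ANBL6BR was high with or without I3MO, and in ANBL6 the I3MO libraries lay above DMSO without reaching ANBL6BR. PHGDH rose by 2.28 in ANBL6, moved by 0.03 in ANBL6BR (adjusted p = 0.974), and the difference was -2.25 ± 0.27 (log2, SE; adjusted p = 0.0331). ASNS (asparagine synthetase) measured 29.6 and 27.9 FPKM in ANBL6BR with I3MO, 23.4 and 22.5 FPKM in ANBL6BR with DMSO, 7.93 and 9.40 FPKM in ANBL6 with I3MO, and 2.54 and 2.47 FPKM in ANBL6 with DMSO. It rose by 1.46 in ANBL6, against 0.31 in ANBL6BR (adjusted p = 0.0789), a difference of -1.14 ± 0.14 (log2, SE; adjusted p = 0.0359). These were the 2 called of 32 tested genes of the ATF4 and CHOP pathway, both lower, against 1.17% of all genes. The list's median difference was -0.32, or -0.01 with a pseudocount of 5. In ANBL6BR 8 of the 32 rose and 1 fell (9.8% and 7.22% of all genes), and in ANBL6 10 rose (1.59%). With DMSO 28 were higher in ANBL6BR than in ANBL6 and 2 lower, against 32.3% and 28.9% of all genes. PSAT1 and ASS1 differed by -0.76 ± 0.19 and -1.09 ± 0.24 without passing (adjusted p = 0.0856 and 0.0716). ATF4 itself measured 129.9 and 134 FPKM in ANBL6BR with I3MO, 108 and 95.4 FPKM in ANBL6BR with DMSO, 111 and 129.5 FPKM in ANBL6 with I3MO, and 74.9 and 68.0 FPKM in ANBL6 with DMSO, with a difference of -0.36 ± 0.18, and DDIT3 (CHOP) one of 0.45 ± 0.41, and neither passed.

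Nuclear genes of the respiratory chain had a negative difference in 32 of 35, with a median of -0.40 that stayed between -0.50 and -0.29 with any 1 library left out. The median of all genes was 0.01. In all 16 choices of libraries 24 of the 35 kept a negative sign, against 21.9% of all genes. Limma called 2 of the 35 lower and 0 higher, against 1.17% and 0.773% of all genes. The 2 called were UQCRH, of complex III, and COX6C, of complex IV. UQCRH measured 30.3 and 31.0 FPKM in ANBL6BR with I3MO, 37.0 and 36.7 FPKM in ANBL6BR with DMSO, 169.7 and 198 FPKM in ANBL6 with I3MO, and 111 and 115 FPKM in ANBL6 with DMSO. In ANBL6BR the I3MO libraries lay below DMSO and in ANBL6 above it. UQCRH rose by 0.69 in ANBL6, moved by -0.26 in ANBL6BR (adjusted p = 0.153), and differed by -0.95 ± 0.15 (log2, SE; adjusted p = 0.0464). COX6C differed by -1.01 ± 0.16. The 13 genes of the mitochondrial genome had a median of -0.19, which became -0.58 on leaving out ANBL6BR DMSO replicate 1 and 0.24 on leaving out replicate 2, and 13 of 13 were higher in replicate 2. Among 28 genes of glycolysis and hypoxia, HK2 (hexokinase 2) had a higher response in ANBL6BR, at 16.8 and 17.9 FPKM in ANBL6BR with I3MO, 9.08 and 7.95 FPKM in ANBL6BR with DMSO, 12.5 and 10.5 FPKM in ANBL6 with I3MO, and 13.3 and 14.3 FPKM in ANBL6 with DMSO, a difference of 1.19 ± 0.16 (log2, SE; adjusted p = 0.0376). ALDOC (aldolase C) and NDRG1, a hypoxia-induced gene, had lower ones, -0.83 ± 0.11 and -1.38 ± 0.20. Of the 28, 1 was called higher and 2 lower, against 0.773% and 1.17% of all genes.

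**Figure D3:**
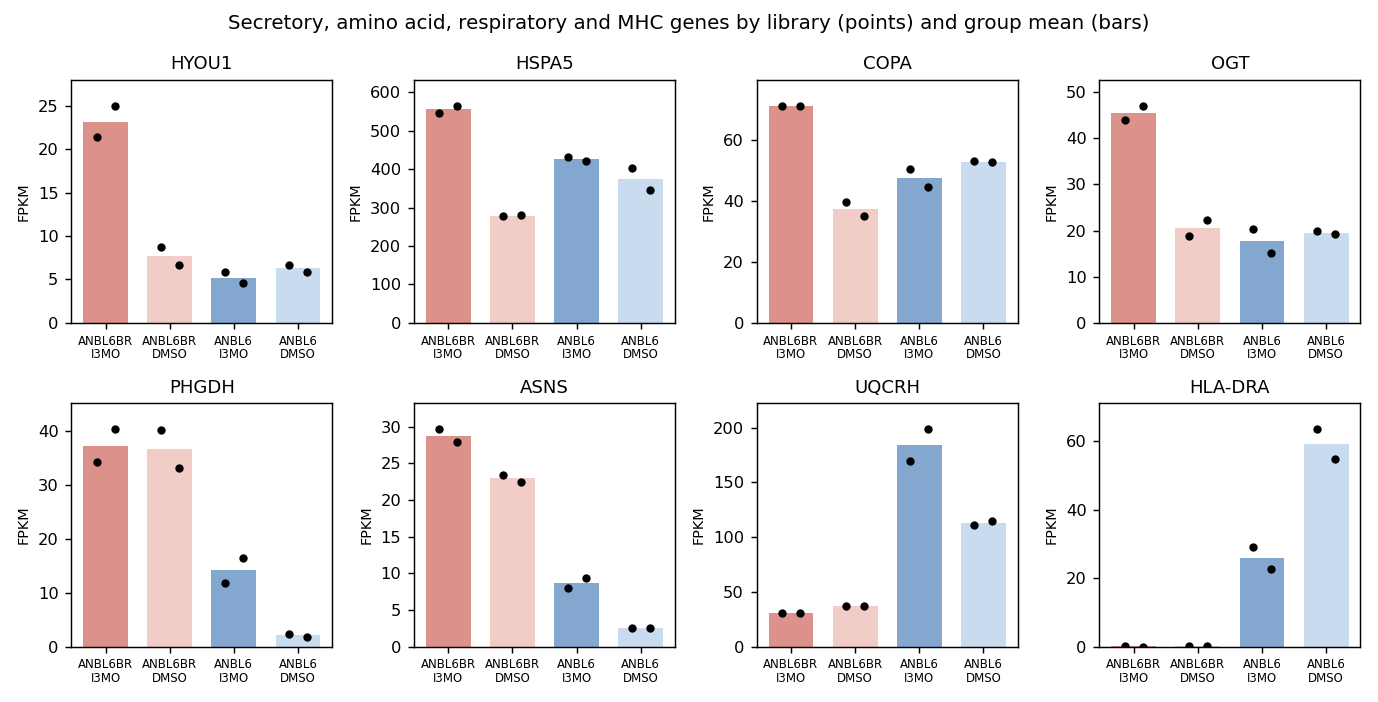
FPKM of 8 genes in each library (points) with group means (bars), 2 libraries per group, axes from 0. HYOU1 stands at 21.4 and 25.0 in ANBL6BR with I3MO, above every other library, while PHGDH differs between I3MO and DMSO in ANBL6 and not in ANBL6BR, and HLA-DRA is near 0 in all ANBL6BR libraries.

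Several immune genes were called although 1 form hardly expressed them. HLA-DRA, a chain of MHC class II, measured 0.0278 and 0.0257 FPKM in ANBL6BR with I3MO, 0.0565 and 0.0285 FPKM in ANBL6BR with DMSO, 29.2 and 22.5 FPKM in ANBL6 with I3MO, and 63.4 and 54.7 FPKM in ANBL6 with DMSO. It fell by 1.17 in ANBL6, and each ANBL6BR library held at most 0.0565 FPKM, so the difference of 1.15 ± 0.19 (log2, SE; adjusted p = 0.0491) is the ANBL6 response with its sign turned, and voom did not call it (adjusted p = 0.635). CIITA, the master regulator of MHC class II, stood at 0.0180 to 0.0472 FPKM in ANBL6BR, and at 0.814 and 0.608 FPKM in ANBL6 with I3MO and 2.27 and 2.67 FPKM in ANBL6 with DMSO, a difference of 1.03 ± 0.16. These were the 2 called of 11 MHC class II genes, both higher, against 0.773% of all genes. ITGB2, an integrin subunit of leukocytes, was at 0.0331 to 0.0863 FPKM in ANBL6BR and differed by 0.77 ± 0.12. IL21R, the interleukin 21 receptor, was expressed in both forms and moved oppositely: it measured 2.39 and 2.24 FPKM in ANBL6BR with I3MO, 1.37 and 1.31 FPKM in ANBL6BR with DMSO, 5.85 and 5.30 FPKM in ANBL6 with I3MO, and 10.9 and 8.88 FPKM in ANBL6 with DMSO, rose by 0.50 in ANBL6BR, fell by 0.72 in ANBL6 and differed by 1.22 ± 0.15 (log2, SE; adjusted p = 0.0359). IGHA1 and the light chain segment IGLV1-47 were listed at 0 in all ANBL6 libraries and fell in ANBL6BR, with differences of -0.90 ± 0.13 and -1.56 ± 0.22 that voom did not call (adjusted p = 0.416 and 0.330). BMF, a pro-death BCL2 family member, fell in both, by 1.55 in ANBL6BR and 0.74 in ANBL6, a difference of -0.81 ± 0.13.

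Over the whole table, 9018 genes reached 1 FPKM in both forms and held 57 of the 92 higher and 94 of the 139 lower calls. Of genes under 1 FPKM in all 4 ANBL6 libraries, 21 were called higher and 14 lower, and of those under 1 FPKM in all 4 ANBL6BR libraries 14 and 31. For these the difference is essentially the response of 1 form. By annotation, 1.69% of 9388 protein-coding genes were called and 3.04% of 626 pseudogenes. Processed pseudogenes such as ATP5MFP2 and TMSB4XP8, at -2.19 ± 0.27 and -1.53 ± 0.23, share sequence with their parent genes, and TMSB4XP8 was listed at 0 in all ANBL6BR libraries. Both were higher in the ANBL6 I3MO libraries, which also listed the most pseudogenes above 0, and that part of the result was not tested. SNORD19C, a small nucleolar RNA, had the largest positive difference among the named genes, 2.07 ± 0.36, and rested on 3 to 13 fragments per library.

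Of the remaining genes with large positive differences, ENTPD7, an enzyme that splits nucleotides, measured 13.6 and 13.3 FPKM in ANBL6BR with I3MO, 4.98 and 4.42 FPKM in ANBL6BR with DMSO, 2.76 and 2.45 FPKM in ANBL6 with I3MO, and 3.01 and 2.76 FPKM in ANBL6 with DMSO. ANBL6BR with I3MO was above all other libraries, and the ANBL6 groups touched. ENTPD7 differed by 1.45 ± 0.13 (log2, SE; adjusted p = 0.0213). RIMS3, a synaptic membrane protein, measured 31.3 and 39.7 FPKM in ANBL6BR with I3MO, 14.1 and 13.6 FPKM in ANBL6BR with DMSO, 29.7 and 20.9 FPKM in ANBL6 with I3MO, and 31.2 and 28.9 FPKM in ANBL6 with DMSO, with ANBL6BR DMSO below the 3 other groups, and differed by 1.55 ± 0.26 (log2, SE; adjusted p = 0.0491). TSPYL2, a nucleosome assembly factor, and the noncoding RNA TSPEAR-AS2 differed by 1.11 ± 0.14 and 1.24 ± 0.20. CAPNS2, a calpain subunit, and RAB39B, a small GTPase, were at or near 0 in ANBL6 and rose in ANBL6BR, with differences of 1.40 ± 0.19 and 1.11 ± 0.12 that voom did not call (adjusted p = 0.7504 and 0.126).

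On the lower side, GSTP1, a glutathione transferase, measured 12.1 and 10.8 FPKM in ANBL6BR with I3MO, 32.5 and 49.0 FPKM in ANBL6BR with DMSO, 26.3 and 26.7 FPKM in ANBL6 with I3MO, and 26.7 and 24.2 FPKM in ANBL6 with DMSO. The 4 ANBL6 libraries lay close together, with ANBL6BR below them with I3MO and above them with DMSO. GSTP1 differed by -1.79 ± 0.27 (log2, SE; adjusted p = 0.0411). FAM111B, a protease, measured 3.28 and 4.05 FPKM in ANBL6BR with I3MO, 10.0 and 10.0 FPKM in ANBL6BR with DMSO, 5.92 and 5.83 FPKM in ANBL6 with I3MO, and 4.16 and 4.56 FPKM in ANBL6 with DMSO, and differed by -1.61 ± 0.14 (log2, SE; adjusted p = 0.0213). RTN4RL2, a Nogo receptor homologue, and EVA1B differed by -1.65 ± 0.22 and -1.51 ± 0.20. The ribosomal protein gene RPL26 had a higher response in ANBL6BR (0.84 ± 0.12), the 1 called of 40, against 0.773% of all genes. LARP7, which binds the 7SK RNA that holds back P-TEFb, had a lower one (-0.60 ± 0.10), the 1 called of 15, against 1.17%.

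Proteasome, NRF2 and heat shock lists moved with the ANBL6BR DMSO replicates. HMOX1 (heme oxygenase), an NRF2 target, measured 59.7 and 76.0 FPKM in ANBL6BR with I3MO, 99.0 and 825 FPKM in ANBL6BR with DMSO, 103 and 158 FPKM in ANBL6 with I3MO, and 26.0 and 43.8 FPKM in ANBL6 with DMSO. A single ANBL6BR DMSO library was far above the other 7, and the difference of -3.96 ± 1.27 did not pass (adjusted p = 0.121). SQSTM1 (p62) measured 26.7 and 22.2 FPKM in ANBL6BR with I3MO, 34.2 and 301 FPKM in ANBL6BR with DMSO, 23.0 and 29.4 FPKM in ANBL6 with I3MO, and 23.0 and 26.3 FPKM in ANBL6 with DMSO, with the same library highest, and did not pass (adjusted p = 0.329). Of 39 proteasome genes limma called 0, with 12 lower at an unadjusted p under 0.05, where 25.8% of all genes passed in either direction. The 20-library fit called 7 of the 39 lower (6.21% of all genes) and voom 0. Their median of -0.54 moved to -0.84 on leaving out ANBL6BR DMSO replicate 1 and to -0.27 on leaving out replicate 2. Between those replicates 34 of 39 were higher in replicate 2. Of 22 NRF2 genes limma called 0, with 1 higher and 7 lower at an unadjusted p under 0.05, the 20-library fit called 1 higher and 6 lower, and voom called 1 lower. Their median was -0.69, with -1.16 without replicate 1 and -0.33 without replicate 2, and 20 were higher in replicate 2. Of 16 heat shock genes limma called 0, with 1 each way at an unadjusted p under 0.05, the 20-library fit called 1 higher and voom 0, and 16 were higher in replicate 2. PSMB5, the catalytic subunit that bortezomib binds, measured 30.2 and 31.1 FPKM in ANBL6BR with I3MO, 34.9 and 52.0 FPKM in ANBL6BR with DMSO, 18.0 and 22.8 FPKM in ANBL6 with I3MO, and 16.2 and 15.3 FPKM in ANBL6 with DMSO, and its difference of -0.81 ± 0.28 did not pass (adjusted p = 0.140).

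**Figure D4:**
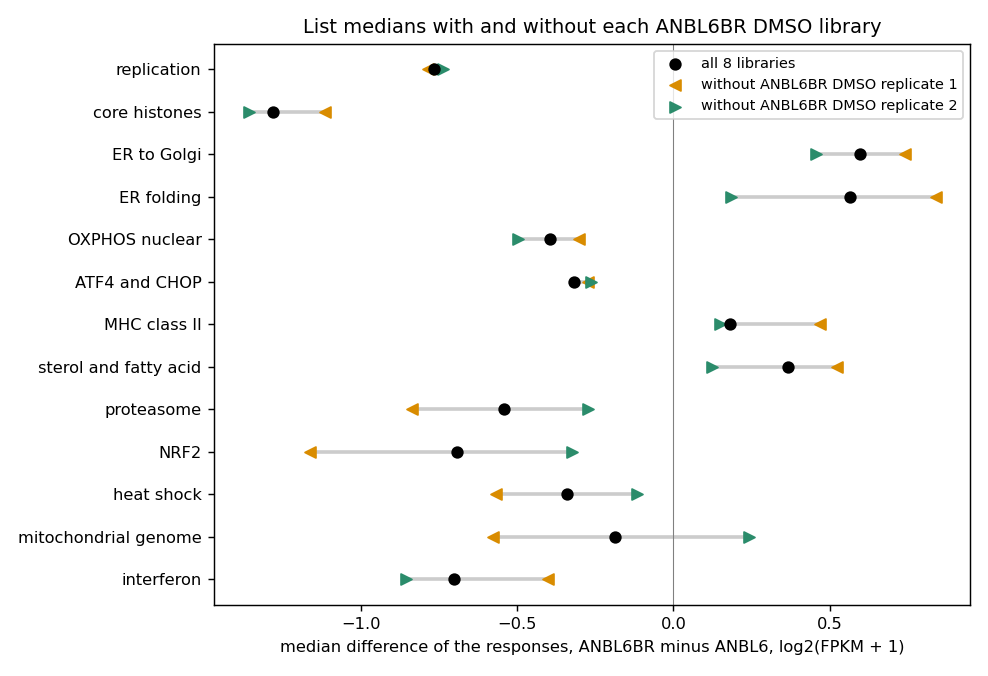
Median difference of the responses (log2(FPKM + 1), ANBL6BR minus ANBL6) for 13 gene lists with all 8 libraries (circles) and without ANBL6BR DMSO replicate 1 or 2 (triangles). The replication median stays between -0.79 and -0.74, the ER folding median spans 0.18 to 0.84 and that of the mitochondrial genome crosses 0.

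The other regulators set to be reported whatever their values did not pass, at adjusted p of 0.0542 and above. Among cell cycle genes, CDKN2B (p15) measured 57.0 and 62.4 FPKM in ANBL6BR with I3MO, 22.1 and 9.43 FPKM in ANBL6BR with DMSO, 0.255 and 0.212 FPKM in ANBL6 with I3MO, and 0.332 and 0.308 FPKM in ANBL6 with DMSO, and differed by 2.06 ± 0.47 (adjusted p = 0.0716). CDKN1A (p21) differed by 0.04 ± 0.48, CDKN1B (p27) by 0.44 ± 0.17, CCND2 by -0.64 ± 0.41, and CCND1 by 0.48 ± 0.13. Of aryl hydrocarbon receptor genes, AHRR, its repressor, came closest, at 1.11 and 1.42 FPKM in ANBL6BR with I3MO, 0.703 and 0.493 FPKM in ANBL6BR with DMSO, 1.03 and 0.998 FPKM in ANBL6 with I3MO, and 1.48 and 1.67 FPKM in ANBL6 with DMSO, with a difference of 0.86 ± 0.16 (adjusted p = 0.0542). CYP1A1, a classical target, was at 0.00342 to 0.0265 FPKM in ANBL6BR and differed by 0.38 ± 0.15, and TIPARP by 0.00 ± 0.21. ABCB1, a drug efflux pump, and CYP1B1 were at or near 0 in all 8 libraries and were not tested.

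Of plasma cell and signalling genes, MYC differed by 0.83 ± 0.71, IRF4 by 0.76 ± 0.61, PRDM1 by 0.50 ± 0.36 and TNFRSF17 (BCMA) by -1.56 ± 0.78. All 15 plasma cell identity genes were lower in ANBL6BR DMSO replicate 2 than in replicate 1. SOCS3, a feedback inhibitor of cytokine signalling, fell in ANBL6BR by 2.92, against -1.84 in ANBL6 (adjusted p = 0.0590), and its difference of -1.08 ± 0.54 did not pass. ID3, an inhibitor of differentiation factors, measured 1.25 and 0.728 FPKM in ANBL6BR with I3MO, 8.10 and 17.5 FPKM in ANBL6BR with DMSO, 2.44 and 2.36 FPKM in ANBL6 with I3MO, and 3.61 and 3.50 FPKM in ANBL6 with DMSO, a difference of -2.30 ± 0.44 (adjusted p = 0.0575). TXNIP, a glucose-sensitive arrestin, differed by 1.72 ± 0.48, CD74 by 0.59 ± 0.28, NFE2L1 and NFE2L2 (the factors NRF1 and NRF2) by 0.41 ± 0.19 and 0.10 ± 0.13, PSME3 by 0.03 ± 0.12 and USP7 by 0.04 ± 0.12.

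Each of the other lists had at most 1 called member. Over all genes, 25.8% had an unadjusted p under 0.05 in either direction, and the 20-library fit called 6.17% higher and 6.21% lower. The unadjusted counts below for sterol and fatty acid genes (8 of 29) and ribosome biogenesis genes (7 of 32) lay near that 25.8%. Of 19 interferon genes, with a median of -0.70, limma called 0, with 2 higher and 8 lower at an unadjusted p under 0.05, and the 20-library fit called 2 higher and 6 lower and voom 1 lower. ISG15, an interferon-induced ubiquitin-like protein, measured 1.33 and 1.11 FPKM in ANBL6BR with I3MO, 4.40 and 3.56 FPKM in ANBL6BR with DMSO, 9.07 and 18.0 FPKM in ANBL6 with I3MO, and 7.49 and 6.36 FPKM in ANBL6 with DMSO, and its difference of -1.97 ± 0.40 did not pass (adjusted p = 0.0612). Of 29 sterol and fatty acid genes, with a median of 0.37, limma called 0, with 7 higher and 1 lower at an unadjusted p under 0.05, and the 20-library fit called 3 higher and voom 0. Of 32 ribosome biogenesis genes, with a median of 0.23, limma called 0, with 7 higher unadjusted, and the 20-library fit called 5 higher and voom 0. Of 13 MHC class I genes, with a median of 0.34, limma called 0, with 5 higher and 1 lower unadjusted, and the 20-library fit called 4 higher and 1 lower and voom 1 higher.

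**Figure D5:**
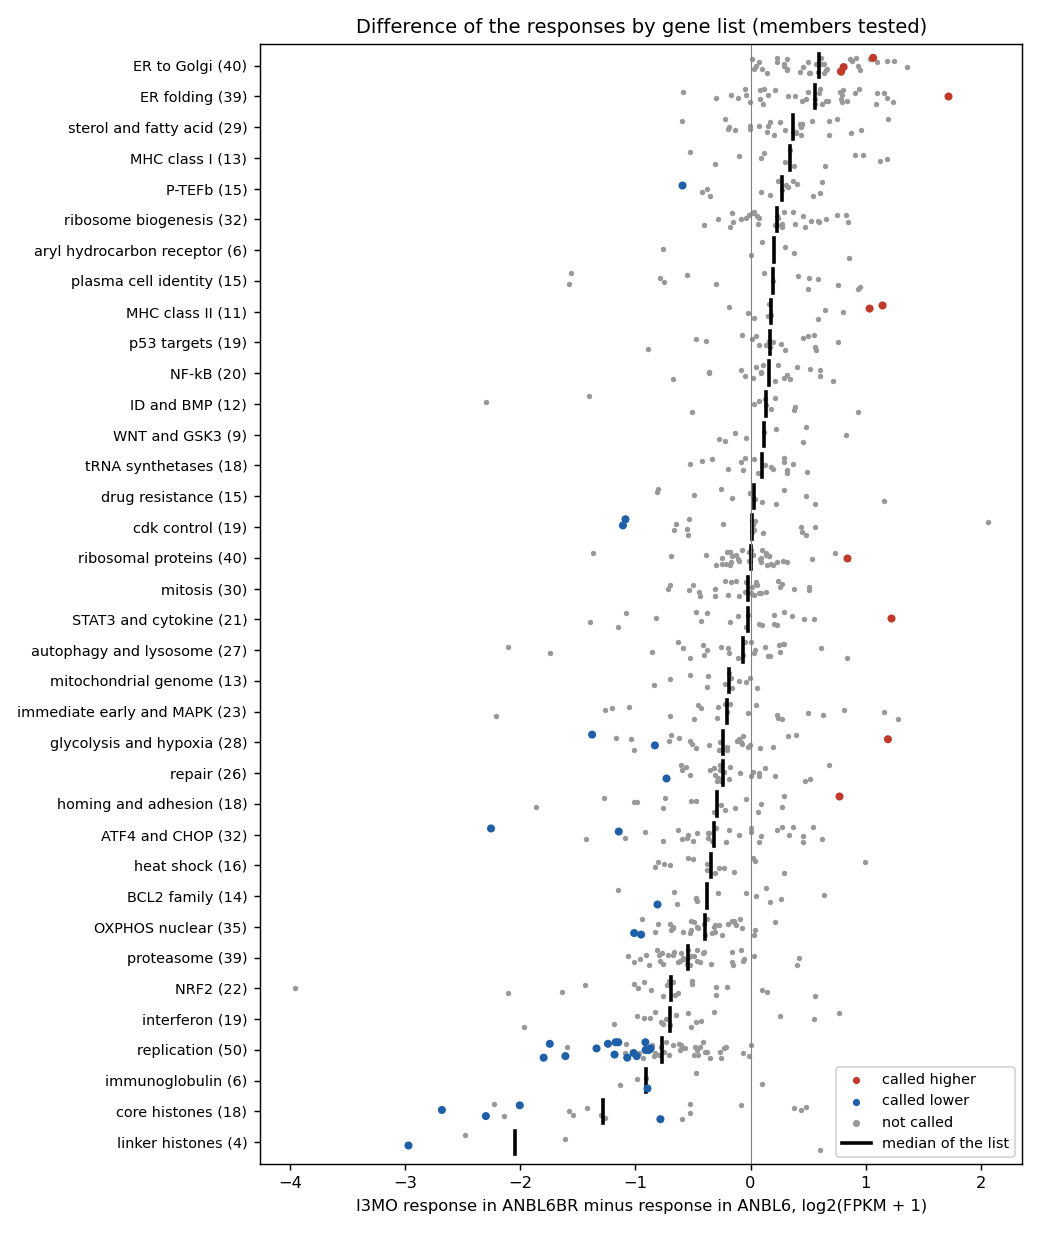
Difference of the responses (log2(FPKM + 1), ANBL6BR minus ANBL6) of each tested member of 36 gene lists, with the list median as a bar and the number tested in parentheses. Called members are coloured: 15 replication genes lie left of 0 and 3 ER to Golgi genes right of it, and the list medians run from -2.05 (linker histones) to 0.60 (ER to Golgi).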

How the data were processed

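Gene levels were deposited by the authors as FPKM, in 1 joint table and 20 single-library tables with the same values. Trimmomatic (0.32 and 0.36), STAR, SAMtools and the hg38 build are named in the submitters' processing notes, and no source used here gives the counting tool or annotation. Gene positions are those of GENCODE 29. Symbols come from a separate list of gene names, with the GENCODE 29 name where that list gave none.

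A model with 1 mean for each of the 4 groups was fitted to log2(FPKM + 1) of the 8 libraries by limma 3.58.1 (R 4.3.3), with the variance allowed to follow intensity (4 residual degrees of freedom, 2.47 prior). P-values are two-sided and Benjamini-Hochberg adjusted over all 11903 genes, and calls have an adjusted p under 0.05. Errors are standard errors of the fit. Differences on this scale are understated for low genes. Whole fragments were recovered from the FPKM steps for 100% of tested genes (tolerance 0.02), with totals of 12110454 to 15933154 per library. Gene length came from the annotation for 3164 genes, as the sum of exons over all transcripts of the gene. Exons shared between transcripts count more than once in that sum. On such a length a gene with many transcripts has a lower FPKM for the same fragments. FPKM levels are therefore not comparable between genes, and the filter of 1 FPKM is stricter for genes with many transcripts. For 8739 genes the length used was the smallest that made the fragments whole, so wholeness there was set by the method and checks nothing. The fragments entered an alternative fit by voom, which called 191 genes. The procedure was also run on simulated fragments with equal spread in all groups and the same starting levels in both forms. That run cannot show how the fit behaves with the unequal spread of these groups.

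Named genes were the 15 largest differences each way among called genes with a symbol, a mean of at least 5 FPKM and the same sign in all 16 choices of libraries, the 2 to 4 list members with the smallest p, and 36 genes reported whatever their values. Further called members of a list, and the genes that mark the 2 forms, were named after their values were seen. The members, lists and tests were chosen with earlier results of these data known. The 36 lists are described by counts and medians, with no test of their own. Alternatives were a fit to all 20 libraries, the replicate block, other pseudocounts, filters, scaling, weights and trend, protein-coding genes only and leaving out each library. Promoter sequences are from RefSeq (GRCh38.p14).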

Additional observations from a re-analysis of the deposited data

Results flagged for a closer look

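The test of the difference itself, ANBL6BR response minus ANBL6 response, called 231 genes at an adjusted p under 0.05 by limma, 1.94% of the genes tested. With 2 libraries per group, a library was not tested for standing apart from its own group. Each value below is that difference on the log2(FPKM + 1) scale for a named gene that passed.

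The response was higher in ANBL6BR for SNORD19C (2.07), HYOU1 (1.71), RIMS3 (1.55), ENTPD7 (1.45), CAPNS2 (1.40), RRBP1 (1.37) and OGT (1.26). Smaller positive differences belonged to TSPEAR-AS2 (1.24), IL21R (1.22), HK2 (1.19), HLA-DRA (1.15), GFPT1 (1.13), TSPYL2 (1.11) and RAB39B (1.11). The smallest of these were COPA (1.06), CIITA (1.03), UGGT1 (1.03), RPL26 (0.84), SEC31A (0.81), MIA3 (0.79) and ITGB2 (0.77).

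The response was lower in ANBL6BR for H1-2 (-2.97), H2BC11 (-2.68), H2BC12 (-2.30), PHGDH (-2.25), ATP5MFP2 (-2.19), H4C9 (-2.07), H2BC21 (-2.005) and CCNE1 (-1.80). Next came GSTP1 (-1.79), CDT1 (-1.74), RTN4RL2 (-1.65), PCNA (-1.61), FAM111B (-1.61), IGLV1-47 (-1.56), TMSB4XP8 (-1.53) and EVA1B (-1.51). These were followed by NDRG1 (-1.38), TYMS (-1.34), GINS2 (-1.24), MCM7 (-1.18), E2F2 (-1.17), MCM5 (-1.15), ASNS (-1.14) and E2F8 (-1.11). Differences nearer 0 belonged to CDK2 (-1.09), MCM2 (-1.07), MCM4 (-1.02), COX6C (-1.01), CHAF1B (-0.99), UQCRH (-0.95), CDC45 (-0.91) and CHAF1A (-0.91). The nearest to 0 were IGHA1 (-0.90), GINS3 (-0.88), POLE2 (-0.87), ALDOC (-0.83), BMF (-0.81), H3C10 (-0.78), CHEK1 (-0.73) and LARP7 (-0.60).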

How the results depend on the processing

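The 61 named genes that passed, chosen on these libraries, kept their sign under every alternative that tested them, but the number of calls did not hold. Against 231 genes (92 higher, 139 lower) with a different response, the fit called 1473 (734 and 739) over all 20 libraries, 112 (33 and 79) with a pseudocount of 0.1, 367 (188 and 179) with a pseudocount of 5, 1156 (228 and 928) with no filter on low values, 34 (8 and 26) with library weights and 503 (257 and 246) over protein-coding genes only. It called 241 with a filter of 5 FPKM, 193 with median-ratio scaling, 243 with no intensity trend and 191 by voom on recovered fragments, which shared 122 of the 231 calls and gave 228 the same sign. Of the 61, voom did not call 15: SNORD19C, CAPNS2, HLA-DRA, RAB39B, H2BC11, ATP5MFP2, H2BC21, IGLV1-47, TMSB4XP8, CIITA, BMF, E2F8, H3C10, IGHA1 and NDRG1, at adjusted p of 0.0526 to 0.7504. Deviations of same-numbered libraries correlated at -0.0758 to 0.117 over all genes, which cannot show whether such libraries shared a culture or batch. With the replicate block limma called 0 (0 higher, 0 lower), with 2892 at an unadjusted p under 0.05. Leaving out 1 library gave 0 to 1877 calls (0 to 969 higher, 0 to 908 lower), where the lone library of a group is assumed to vary like the others. The causes of these shifts were not tested.

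For the response of ANBL6BR (2025 genes) the fit called 672 with no filter, 1323 with a filter of 5 FPKM, 968 with library weights and 43 to 3363 with 1 library left out. For ANBL6 (336 genes) it called 1378 over 20 libraries, 25 with the replicate block, 187 and 529 with a pseudocount of 0.1 and 5, 2237 with no filter, 1113 with library weights and 0 to 1327 with 1 library left out.

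Signs turned for 10 named genes that had not passed. By voom the difference of CYP1A1 was -0.58 and that of NKD2 was 0.40. With 1 library left out at a time, the difference spanned -0.512 to 0.056 for CDC6, -0.421 to 0.498 for CDKN1A, -0.010 to 0.919 for DDIT3, -1.084 to 0.034 for MT-ND1, -0.047 to 1.701 for MYC, -0.013 to 0.076 for PSME3, -0.182 to 0.187 for TIPARP and -0.020 to 0.095 for USP7.

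List medians shrank with a pseudocount of 5, to -0.47 for replication, -0.67 for core histones and -0.01 for the ATF4 and CHOP pathway. Adding 1 to FPKM understates changes of low genes, and 408 genes lay just above the filter (second-highest FPKM from 1 to under 1.1), with 435 just below it (0.9 to under 1).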

Other observations

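The genes whose responses differed can also be placed by the gap between the 2 forms under each treatment, tested in the same fit on the same libraries; these counts were chosen after seeing the data. Of the 139 genes with a lower response in ANBL6BR, 28 were higher and 96 lower in ANBL6BR than in ANBL6 with I3MO, and 69 were higher and 23 lower with DMSO. Of the 92 genes with a higher response in ANBL6BR, 65 were higher and 17 lower in ANBL6BR with I3MO, and 23 were higher and 38 lower with DMSO. Over all genes, 35.1% were higher and 30.7% lower in ANBL6BR with I3MO, and 32.3% higher and 28.9% lower with DMSO.

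Of the 50 replication genes, 7 were higher and 29 lower in ANBL6BR than in ANBL6 with I3MO, and 25 were higher and 9 lower with DMSO. Of the 40 genes of ER to Golgi traffic, 23 were higher and 3 lower with I3MO, and 8 were higher and 13 lower with DMSO. These counts and the difference of the responses use the same libraries, so they are not independent of each other.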
